A study of Homo sapiens with 8 samples.

Results

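Non-repeat intergenic peaks are the places bound in an mTOR chromatin immunoprecipitation that lie between genes and outside annotated repeats. They were chosen from the authors' peak annotation by 5 conditions: the peak lies on chromosomes 1 to 22, X or Y, its annotation begins with intergenic, its detailed annotation names no repeat, its GC content is below 60%, and it lies more than 1000 bp from the nearest transcription start site (TSS). The rule found 7921 such peaks among the 125713 peaks of 4 lists, beside 8401 non-repeat intronic peaks under the same GC and TSS limits and 48689 intergenic peaks in repeats. The lists come from LNCaP, an established human prostate cancer cell line that responds to androgen. The 4 groups were shFoxA1 cells given R1881, shFoxA1 cells given EtOH, shEV cells given R1881 and shEV cells given EtOH, where shFoxA1 is a short hairpin against FoxA1 and shEV the empty vector. All cells had first spent 48 h without androgen in 2% charcoal-stripped serum, and R1881, a synthetic androgen, was then given at 10 nM, or the vehicle EtOH at 0.1%, for 24 h. Each group has 1 immunoprecipitated library, so no replicate error exists and no test was run; intervals cover counting error only. The level of FoxA1 cannot be read from these lists, so the knockdown itself was not checked, and no non-repeat intergenic peak in any list had FOXA1 as its nearest gene. The lists come from bulk chromatin, so a site bound in more cells and a site bound more strongly per cell cannot be told apart.

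mTOR is a serine/threonine kinase best known for coupling nutrients and growth factors to protein synthesis from the cytoplasm and the lysosome. A share of it is found in the nucleus, where it has been located at chromatin in prostate cancer cells. The androgen receptor, when it binds androgen, occupies mostly sites far from gene starts, and FoxA1 is a pioneer factor that opens many of those sites in the prostate lineage. Intergenic peaks outside repeats and away from gene starts are therefore the class in which distal regulatory elements would be looked for. Between genes lie also the tRNA genes, which RNA polymerase III transcribes from promoter elements inside the gene, the A box and the B box, and whose output mTOR signalling promotes.

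No genome accompanied the lists, so bases under most of these peaks could not be read. RefSeq promoter windows, which span 250 bases before to 50 bases after a gene's start on GRCh38.p14, were available for the exceptions: 94 windows of 88 genes, 78 of them long noncoding RNA (lncRNA) genes and 10 protein-coding, overlapped a non-repeat intergenic peak of at least 1 list. These peaks lie between genes in the annotation used by the authors and on a gene start in the newer RefSeq annotation. The first 4 windows below were picked, after their values were seen, from those of 6 genes in regions bound in both R1881 lists and in neither EtOH list, to show windows with different marked matches and the one nearest to PMEPA1. The last 2 were picked in the same way from windows under peaks of all 4 lists, to show a protein-coding gene start and a tRNA gene. Each is printed from 5′ to 3′ along the strand of its gene. Capitals mark every match, on either strand, to the androgen receptor hexamer AGAACA, the forkhead motifs TGTTTAC and TGTTTGC, the ETS motif CCGGAAG and the B box core GGTTCGA, and no marked match overlaps another.
LOC105375373, chr7:80334904-80335203, minus strand: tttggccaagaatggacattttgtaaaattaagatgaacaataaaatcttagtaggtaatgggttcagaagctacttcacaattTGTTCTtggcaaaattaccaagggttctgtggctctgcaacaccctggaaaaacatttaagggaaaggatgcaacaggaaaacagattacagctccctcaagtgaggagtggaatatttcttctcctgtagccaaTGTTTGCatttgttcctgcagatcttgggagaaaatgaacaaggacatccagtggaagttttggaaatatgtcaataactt
LOC124903956, chr17:27241660-27241959, minus strand: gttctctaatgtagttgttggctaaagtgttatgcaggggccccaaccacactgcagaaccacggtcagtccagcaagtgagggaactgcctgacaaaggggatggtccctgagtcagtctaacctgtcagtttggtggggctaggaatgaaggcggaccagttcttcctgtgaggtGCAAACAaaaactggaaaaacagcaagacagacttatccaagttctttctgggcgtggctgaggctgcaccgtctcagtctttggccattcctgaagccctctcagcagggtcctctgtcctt
LOC107983998, chr19:55634753-55635052, plus strand: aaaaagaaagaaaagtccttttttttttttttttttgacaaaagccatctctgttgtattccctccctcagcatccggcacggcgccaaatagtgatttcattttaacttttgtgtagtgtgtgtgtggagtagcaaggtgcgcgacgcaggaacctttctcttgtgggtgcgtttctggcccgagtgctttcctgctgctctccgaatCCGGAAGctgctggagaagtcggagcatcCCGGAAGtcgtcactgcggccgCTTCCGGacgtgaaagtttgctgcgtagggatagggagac
LOC105372692, chr20:57718424-57718723, plus strand: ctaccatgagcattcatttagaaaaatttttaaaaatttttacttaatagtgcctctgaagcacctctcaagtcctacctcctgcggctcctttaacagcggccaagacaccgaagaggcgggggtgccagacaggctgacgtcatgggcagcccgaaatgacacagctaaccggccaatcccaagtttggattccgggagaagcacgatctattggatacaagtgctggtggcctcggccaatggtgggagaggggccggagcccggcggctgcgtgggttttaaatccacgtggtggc
PRRC2B, chr9:131373401-131373700, plus strand: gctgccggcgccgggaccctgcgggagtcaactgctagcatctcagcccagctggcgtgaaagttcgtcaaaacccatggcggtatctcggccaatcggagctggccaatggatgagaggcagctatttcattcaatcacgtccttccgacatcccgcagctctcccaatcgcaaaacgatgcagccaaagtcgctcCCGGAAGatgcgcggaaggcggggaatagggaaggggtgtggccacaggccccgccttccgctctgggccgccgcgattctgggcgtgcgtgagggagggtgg
LOC124901292, chr6:27668524-27668823, minus strand: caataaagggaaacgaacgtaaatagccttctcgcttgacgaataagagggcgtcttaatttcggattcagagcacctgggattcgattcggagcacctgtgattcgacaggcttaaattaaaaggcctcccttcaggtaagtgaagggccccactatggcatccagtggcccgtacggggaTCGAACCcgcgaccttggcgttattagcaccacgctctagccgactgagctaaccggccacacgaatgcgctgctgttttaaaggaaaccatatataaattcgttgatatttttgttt

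The LOC105375373 window held 2 marked matches, 1 of AGAACA on the reverse strand and 1 of TGTTTGC. Its peak scored 74 in the shFoxA1 R1881 list and 20 in the shEV R1881 list. The score is the authors' own value for a peak and was read only within a list. The LOC124903956 window held 1 match, to TGTTTGC, under peaks that scored 186 with shFoxA1 and R1881 and 104 with shEV and R1881. The LOC107983998 window, 6.19 kb upstream of ZNF580, held 3 matches to CCGGAAG under peaks of score 65 with shFoxA1 and R1881 and 34 with shEV and R1881. The LOC105372692 window held no marked match; its peaks, 83 with shFoxA1 and R1881 and 42 with shEV and R1881, were assigned to PMEPA1, an androgen-induced inhibitor of TGF-beta signalling, from 7.18 kb upstream in the shFoxA1 R1881 list. PRRC2B, which encodes an RNA-binding protein, shows how the label depends on the annotation: the file places the peak 56.7 kb upstream of its start, whereas RefSeq gives a start inside it. That peak scored 319 with shFoxA1 and R1881, 527 with shFoxA1 and EtOH, 157 with shEV and R1881 and 180 with shEV and EtOH. The LOC124901292 window contains the isoleucine tRNA gene TRI-AAT8-1, whose B box core is the marked match, and its peak scored 537, 782, 533 and 380 in the same order of lists. Over the 94 windows, AGAACA was found in 22.3%, against 14.8% of all 35116 windows, TGTTTAC in 8.51% against 3.42%, TGTTTGC in 9.57% against 3.89%, CCGGAAG in 17.0% against 10.3% and GGTTCGA in 2.13% against 0.86%. Of the other motifs among the 14 searched, the GATA motif AGATAAG was found in 5.32% against 2.68%, whereas some were level or less frequent in the 94 windows: the E-box CACGTG was found in 7.45% against 7.26%, the AP-1 motif TGANTCA in 6.38% against 7.71% and the CTCF core AGGGGGCG in 5.32% against 8.3%. With 94 windows these shares rest on few matches each. The peaks over the 94 windows had a GC content below 60% by rule, a limit not set for the 35116 windows. Base composition was not matched between the 2 sets. A match describes letters in a window and does not show that a factor was bound there.

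Non-repeat intergenic peaks were a small class in every list and a larger share of both R1881 lists than of the EtOH lists. They made up 2925 of 39570 peaks in shFoxA1 R1881 cells (7.39%, Wilson 95% interval 7.14 to 7.65) and 1924 of 35121 in shFoxA1 EtOH cells (5.48%, 5.25 to 5.72). They made up 1760 of 26074 peaks in shEV R1881 cells (6.75%, 6.45 to 7.06) and 1312 of 24948 in shEV EtOH cells (5.26%, 4.99 to 5.54). With either hairpin the interval with R1881 lay above the interval with EtOH. The 2 shFoxA1 lists are also the longer ones, read totals are not in the files, and depth and knockdown cannot be told apart there. The peaks covered 1.85 Mb in shFoxA1 R1881 cells, 1.26 Mb in shFoxA1 EtOH cells, 1.07 Mb in shEV R1881 cells and 0.843 Mb in shEV EtOH cells. Their median width lay between 461 and 488 bp, and their median GC content was 45.7%, 46.0%, 44.1% and 44.2% in the same order of lists. The median distance to the nearest TSS was 38.6 kb, 38.8 kb, 43.2 kb and 41.7 kb, and between 53.9% and 56.9% lay within 50 kb of one. Width, composition and position thus differed little between lists, with slightly richer and nearer peaks in the shFoxA1 lists. The median score was 57, 49, 58 and 50 within each list, where all peaks had medians of 65, 66, 58 and 58. The GC condition removed 555, 593, 262 and 292 peaks that met the others, and the distance condition removed none. The peaks nearest to the GC limit had 59.97% to 59.98% G and C inside it and 60% to 60.07% outside it, and the peak closest to a TSS lay 1010 to 1053 bp away, depending on the list.

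The label was checked against RefSeq and against base composition, since both bear on what the strongest peaks are. No RefSeq gene lay under 69.6% of the peaks in shFoxA1 R1881 cells, 68.7% in shFoxA1 EtOH cells, 67.8% in shEV R1881 cells and 68.3% in shEV EtOH cells. A further 16%, 15.1%, 15.9% and 14.9% lay in the body of an lncRNA gene, and 5.09%, 6.19%, 4.83% and 4.12% in the body of a protein-coding gene. The strongest peak of every list lay at chr1:125178171-125180886 (the interval in the shEV EtOH list), and its nearest gene, the pseudogene EMBP1, was 3660 kb away. This peak scored 222577 with shFoxA1 and R1881, 234342 with shFoxA1 and EtOH, 223831 with shEV and R1881 and 229419 with shEV and EtOH. It held 36.6% to 37.1% G and C and a ratio of observed to expected CpG of 1.51 to 1.52. Among the next highest in score were peaks whose nearest gene was LSP1P5 on chromosome 1, 190 to 229 kb away. Others of these had ANKRD26P1 (169 to 180 kb away) or CCNYL3 (201 kb away) on chromosome 16 as nearest gene. They were found in all 4 lists and held 35.9% to 36.8% G and C at a CpG ratio of 1.11 to 1.5, and the highest of those near LSP1P5 was 11309 bp wide in shEV EtOH cells. The authors' annotation names no repeat for these strongest peaks, but whether their sequence is unique in the genome was not tested. In 30 windows of 1 Mb at least 1 list had 8 or more non-repeat intergenic peaks. These windows held 10.9% of the peaks in shFoxA1 R1881 cells, 12.6% in shFoxA1 EtOH cells, 13.8% in shEV R1881 cells and 15.1% in shEV EtOH cells. Of the 50 non-repeat intergenic peaks of highest score in each list, 25, 29, 29 and 31 lay in these windows, in the same order of lists. Of the peaks inside the windows 50.6%, 64.0%, 65.3% and 69.2% lay in regions bound in all 4 lists, and of the peaks outside them 18.2%, 25.7%, 29.1% and 38.1%. Values without these windows are given beside the shares and odds ratios that follow.

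R1881 was accompanied by more new than missing non-repeat intergenic peaks with both hairpins. A gained peak is one with no overlap of even 1 bp with any peak of the other list, and a lost peak is one of the other list without a partner. In shFoxA1 cells 1816 of 2925 peaks were gained with R1881 (62.1%, where 44.5% of all peaks were gained) and 862 of 1924 were lost (44.8%, where 37.5% of all peaks were lost). In shEV cells 1059 of 1760 were gained (60.2%, where 45.0% of all peaks were gained) and 669 of 1312 were lost (51.0%, where 42.6% of all peaks were lost). Gained peaks thus made up 67.8% of gained and lost peaks together in shFoxA1 cells (66.0 to 69.6) and 61.3% in shEV cells (59.0 to 63.6), and without the dense windows 67.7% and 61.6%. Over all peaks the share was 57.2% and 52.5%, and over all peaks under the same GC and TSS limits 59.2% and 54.1%, each with shFoxA1 first. Intergenic peaks in repeats had 55.1% in shFoxA1 cells and 49.8% in shEV cells. Non-repeat intronic peaks had 66.1% in shFoxA1 cells and 66.0% in shEV cells, so the higher share with R1881 was not particular to peaks between genes. Intronic peaks in repeats were not counted as a class, so peaks outside and in repeats were compared only between genes. Gained and lost peaks were weak within their lists: the median score was 41 for gained and 92 for shared peaks of the shFoxA1 R1881 list, and 50 and 104 for those of the shEV R1881 list. Lost peaks had medians of 42 in the shFoxA1 EtOH list and 34 in the shEV EtOH list, where shared peaks had 84 and 95.

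**Figure D1:**
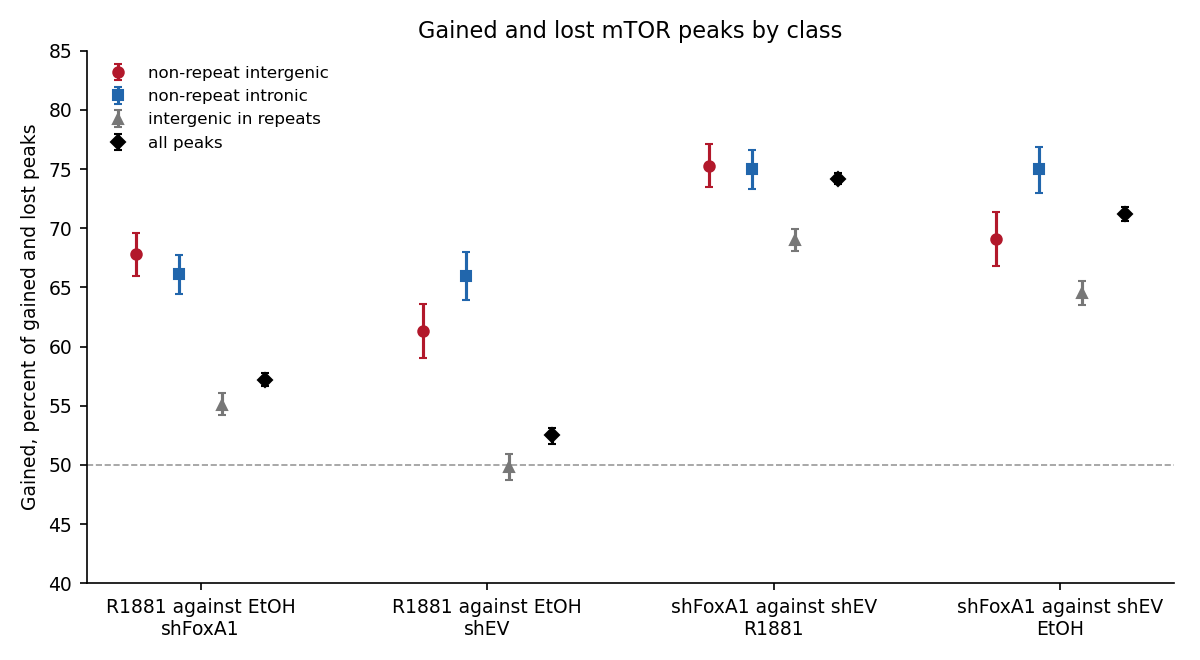
Gained peaks as a percentage of gained and lost peaks (vertical axis, from 40 to 85%) for 4 peak classes in 4 comparisons of 1 library with 1 library; points are shares, bars are Wilson 95% intervals from counting error, and the dashed line marks equal numbers. Non-repeat intergenic peaks lay above all peaks in both comparisons of R1881 with EtOH (67.8% against 57.2% with shFoxA1, 61.3% against 52.5% with shEV) and close to them in the comparisons of hairpins.

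The plot of gained shares by class shows the red points of the non-repeat intergenic peaks above the black points of all peaks in the 2 comparisons of R1881 with EtOH. With shEV the intergenic interval ended below that of the intronic peaks, and with shFoxA1 the 2 intervals overlapped.

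Many regions were bound with R1881 and not with EtOH whichever hairpin the cells carried. Peaks of the 4 lists were merged into 61118 regions, of which 5215 (8.53%) held at least 1 non-repeat intergenic peak, and in 1384 of those (26.5%) a peak of another class lay in the same region. Peaks of both R1881 lists and of neither EtOH list were found in 487 of the 5215 regions (9.34%, where 5.27% of all regions had that pattern, and 9.66% without the dense windows). Peaks of both EtOH lists and of neither R1881 list were found in 165 (3.16%, where 3.21% of all regions had that pattern). Of all regions bound only in both R1881 lists, 15.1% (13.9 to 16.4) were non-repeat intergenic, the highest share of the 15 presence patterns; in regions bound only in both EtOH lists it was 8.4% (7.25 to 9.71). Among regions that changed with both hairpins, 487 were gained in both, 165 were lost in both, 94 were gained with shFoxA1 and lost with shEV, and 72 were lost with shFoxA1 and gained with shEV. The odds ratio of these counts was 11.9 (8.33 to 16.9), against 4.45 (4.04 to 4.91) over all regions, and the 2 pairs of libraries behind it share no library. It was 13.7 without the windows dense in non-repeat intergenic peaks and 15 over regions that hold no peak of another class. By GC content it was 29.8 (14.4 to 61.4) in regions below 40%, 11.2 (6.69 to 18.8) from 40 to 50% and 4.92 (2.33 to 10.4) from 50 to 60%. Regions bound only in both R1881 lists had a median GC content of 43.5%, lay a median of 48.6 kb from a TSS and had a median width of 498.5 bp.

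**Figure D2:**
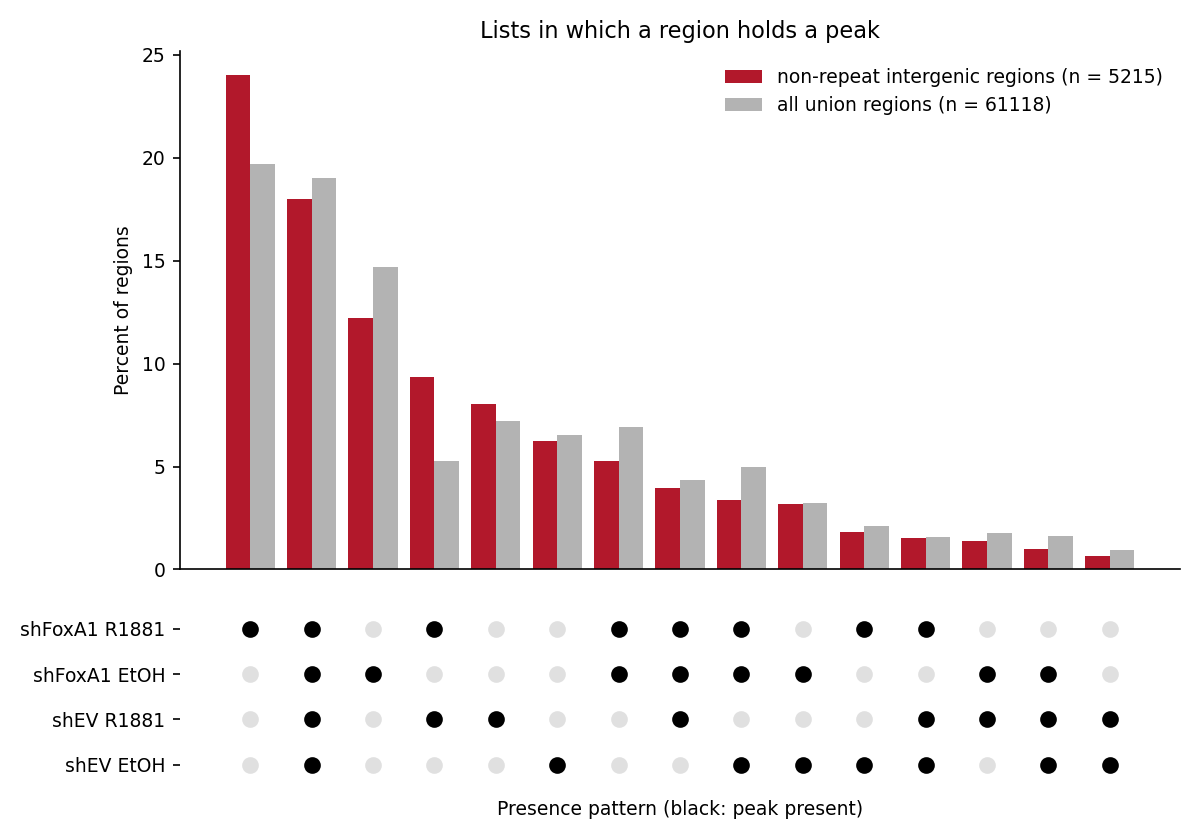
Percentage of regions (vertical axis) with each of the 15 presence patterns over the 4 lists, for the 5215 non-repeat intergenic regions (red) and all 61118 regions (grey); black dots below a pair of bars mark the lists with a peak. The pattern of both R1881 lists alone takes 9.34% of non-repeat intergenic regions and 5.27% of all regions, and presence in all 4 lists takes 18.0% and 19.0%.

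The plot of presence patterns shows where else the red and grey bars part. Regions found in the shFoxA1 R1881 list alone were 1254 (24.0%, against 19.7% of all regions), those in the shFoxA1 EtOH list alone 637 (12.2% against 14.7%), those in the shEV R1881 list alone 418 (8.02% against 7.23%) and those in the shEV EtOH list alone 326 (6.25% against 6.53%). Of all regions in the shFoxA1 R1881 list alone 10.4% (9.9 to 11.0) were non-repeat intergenic, in the shFoxA1 EtOH list alone 7.08% (6.57 to 7.63), in the shEV R1881 list alone 9.46% (8.63 to 10.4) and in the shEV EtOH list alone 8.16% (7.35 to 9.05). The last of these intervals includes the 8.53% over all regions.

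Several of the highest-scoring peaks gained with R1881 were the same places with both hairpins. The rule for naming took, for each comparison, the 10 gained and the 10 lost peaks of highest score whose nearest gene is protein-coding. For peaks named by this rule, the score given for a list is that of the highest peak of the region in it. A gene named is only the nearest one, and some lay far from the peak. The distance was 67.2 kb for NUFIP1, 67.3 kb for SORL1, 83.8 kb for PMAIP1 and 133 kb for DIPK2A. It was 171 kb for MSN, 411 kb for PRR16 and 441 kb for NTRK2. The peak 33.2 kb upstream of MYL10, a myosin light chain gene, at chr7:101661938-101663053 in the shEV R1881 list, scored 522 with shFoxA1 and R1881, a score reached by 3.05% of that list's peaks. It scored 1444 with shEV and R1881 (reached by 0.56%) and had no partner in either EtOH list. Another peak with both hairpins and R1881, and none with EtOH, lay near C5orf46 (332 with shFoxA1, 393 with shEV). The peak near NUFIP1, whose protein takes part in the autophagy of ribosomes, scored 281 with shFoxA1 and 313 with shEV, the one near LDLRAD3, of the low-density lipoprotein receptor family, 306 and 238, and the one near DIPK2A 232 and 214. MSN, which encodes moesin, a linker of the membrane to actin, had a peak of 609 with shFoxA1 and R1881 (reached by 2.45% of its list) and of 191 with shEV and R1881 (reached by 12.8%). PMAIP1, the gene of the pro-apoptotic protein NOXA, had 319 and 114, SORL1, a sorting receptor gene, 306 and 42, and PRR16 112 and 300. At GTF2E2, a gene of the general transcription factor TFIIE, and NTRK2, the gene of the neurotrophin receptor TrkB, the shEV R1881 peak was of the repeat class: the scores were 319 with shFoxA1 and 313 with shEV, and 281 and 300. SASH1, a scaffold protein gene, was counted as gained with shFoxA1 (332 with R1881) but in shEV cells had a peak with R1881 (300) and with EtOH (50).

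Among the named peaks lost with R1881, some were lost with both hairpins and some with 1 hairpin. The peak near NSG2, a neuronal endosomal protein gene, scored 49 with shFoxA1 and EtOH and 251 with shEV and EtOH, and had no partner in either R1881 list. KRTAP19-8, a keratin-associated protein gene, had 66 and 136 in those EtOH lists, GPR63, an orphan receptor gene, 75 and 125, CYBRD1, a ferric reductase gene, 200 and 58, and FUT9, a fucosyltransferase gene, 166 and 14, again with none in an R1881 list. These peaks lay 101 kb from NSG2, 60.3 kb from KRTAP19-8, 98.2 kb from GPR63, 42.0 kb from CYBRD1 and 212 kb from FUT9. RPTOR, whose protein raptor recruits substrates to mTOR complex 1, had a peak 21.6 kb upstream at chr17:80523068-80523417 that was absent with shFoxA1 and R1881 and scored 123 with shFoxA1 and EtOH, 76 with shEV and R1881 and 105 with shEV and EtOH. WIPI2, whose protein acts in autophagosome formation, had the same pattern, with no peak in shFoxA1 R1881 cells and 155, 67 and 76 in the other lists. SGPP1, a sphingosine-1-phosphate phosphatase gene, was lost with R1881 in shEV cells and kept with R1881 in shFoxA1 cells: its peak scored 197 with shFoxA1 and R1881, 84 with shFoxA1 and EtOH and 180 with shEV and EtOH, and was not found with shEV and R1881.

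Peaks gained with R1881 lay near some of the best-known androgen-induced genes. Of 40 genes known to be induced by androgen, 8 had a gained peak within 50 kb of the start in shFoxA1 cells (20.0%, where 2.81% of 20037 protein-coding genes had one) and 9 in shEV cells (22.5%, where 1.58% had one). A gene counted only where the file names it as the nearest gene. A lost peak was found at 1 of the 40 in shFoxA1 cells (2.5%, where 1.29% of protein-coding genes had one) and at 1 in shEV cells (2.5%, where 1.03% had one). The peak lost with shFoxA1 was at ERRFI1 (score 15 with EtOH). The list was chosen with results of these data known, so its share describes these libraries. Peaks gained with both hairpins included those at NDRG1, a stress-response gene (132 with shFoxA1, 135 with shEV, 29.8 kb upstream), at ERRFI1, which encodes an inhibitor of the epidermal growth factor receptor (57 with shFoxA1, 44.3 kb upstream, and 85 with shEV, 44.9 kb upstream), at ZBTB10 (102 and 85, 44.4 kb upstream), at PMEPA1 (83 and 42) and at ZBTB16, a zinc-finger repressor gene (49 and 27, about 23.1 kb upstream). TMPRSS2, the serine protease gene that is fused to ETS genes in many prostate tumours, gained a peak with both hairpins but at different places: 18.6 kb upstream with shFoxA1 (score 41) and 12.5 kb upstream with shEV (score 50). AZGP1, a secreted glycoprotein gene, gained one with shFoxA1 (41), and HERC3, a ubiquitin ligase gene, and CAMKK2, a kinase gene, gained one with shEV (58 and 34). Without a limit on distance, ZBTB10 was the nearest gene of 5 non-repeat intergenic peaks in shFoxA1 R1881 cells, 1 in shFoxA1 EtOH cells, 5 in shEV R1881 cells and 0 in shEV EtOH cells. With shEV and R1881 these lay 119, 96.2 and 44.4 kb upstream and 66.2 and 93.6 kb downstream of its start. Peaks of any class with ZBTB10 as nearest gene numbered 9, 4, 8 and 3 in the same order of lists. ZBTB10 was the nearest gene of 3 regions bound only in both R1881 lists, and no other gene was nearest, within 500 kb, to that many.

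**Figure D3:**
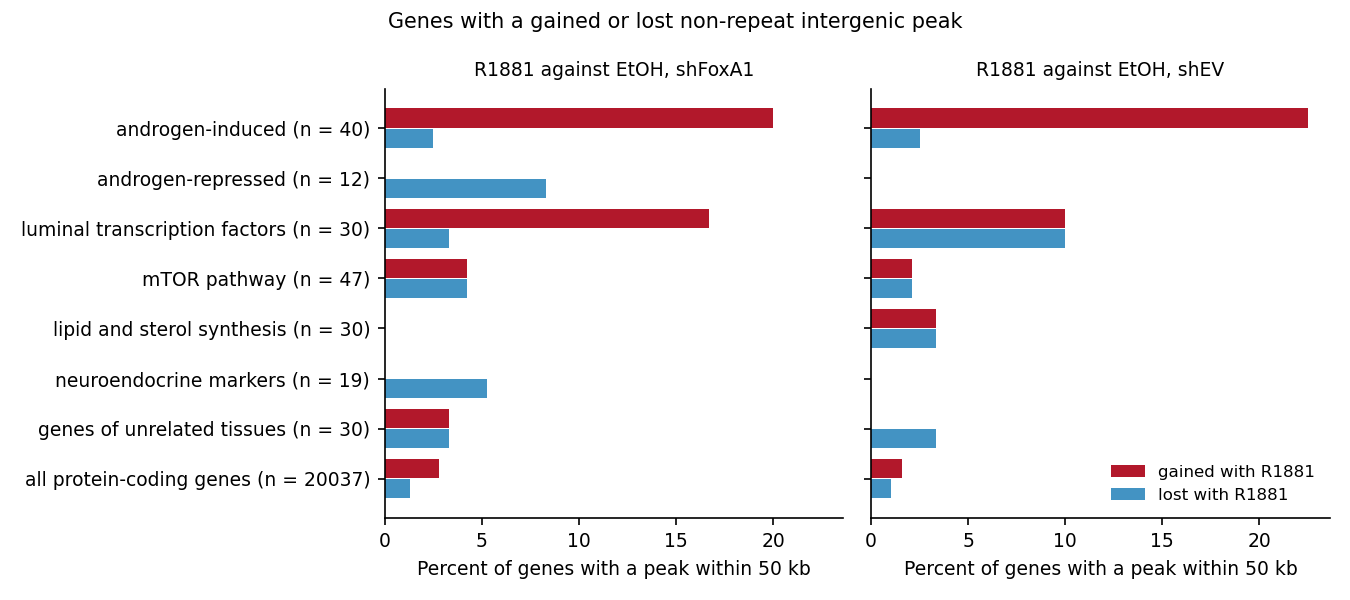
Percentage of genes in 7 lists and of all 20037 protein-coding genes (rows) that had a non-repeat intergenic peak within 50 kb gained (red) or lost (blue) with R1881 against EtOH, in shFoxA1 cells (left panel) and shEV cells (right panel). Androgen-induced genes had a gained peak in 20.0% of cases with shFoxA1 and 22.5% with shEV, against 2.81% and 1.58% of all protein-coding genes.

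The other rows of the plot of gene lists rest on few peaks, and are to be read against the 2.81% of protein-coding genes that gained and the 1.29% that lost a peak with shFoxA1, and the 1.58% and 1.03% with shEV. Of 12 genes known to be repressed by androgen, 1 had a change: CAMK2N1, an inhibitor gene of a calcium-dependent kinase, lost a peak in shFoxA1 cells. Of 30 genes of luminal transcription factors, 5 gained and 1 lost a peak in shFoxA1 cells, and 3 gained and 3 lost one in shEV cells, or 16.7% and 3.33% with shFoxA1 and 10% and 10% with shEV. The gene that lost in shFoxA1 cells was HOXB13, which encodes a homeobox partner of the androgen receptor. In the shFoxA1 EtOH list 5 of its peaks, 4.73 to 29.1 kb upstream and of score 27 to 75, had no partner in the shFoxA1 R1881 list. Those 4.73 and 28.3 kb upstream shared their regions with shEV R1881 peaks of score 42. HOXB13 was the nearest gene of 0 non-repeat intergenic peaks with shFoxA1 and R1881, 5 with shFoxA1 and EtOH, 1 with shEV and R1881 and 1 with shEV and EtOH. Peaks of any class with HOXB13 as nearest gene numbered 6, 7, 3 and 3 in the same order of lists. EHF, an epithelial ETS factor gene, gained a peak about 38.7 kb downstream with both hairpins (65 with shFoxA1, 50 with shEV). Among 47 genes of the mTOR pathway, 2 gained and 2 lost a peak in shFoxA1 cells and 1 gained and 1 lost one in shEV cells, or 4.26% each way with shFoxA1 and 2.13% each way with shEV. All 4 shares were above those over all protein-coding genes, but each rests on 1 or 2 genes, too few for a reading. DDIT4, whose protein REDD1 inhibits mTOR complex 1, gained peaks with both hairpins at different places: 25.1 and 17.5 kb upstream with shFoxA1 (83 and 49) and 10.1 kb upstream with shEV (20). EIF4EBP1, the gene of a translation repressor that mTOR phosphorylates, gained one with shFoxA1 (34). RHEB, the gene of the GTPase that activates mTOR complex 1, lost the same peak with both hairpins (84 in shFoxA1 EtOH cells, 34 in shEV EtOH cells, 32.7 kb upstream in the shEV list). In lipid and sterol synthesis (30 genes), ELOVL5, a fatty acid elongase gene, gained and INSIG1, a sterol sensor gene, lost a peak in shEV cells, and no gene did in shFoxA1 cells. Of 19 neuroendocrine marker genes, CALCA, the calcitonin gene, lost a peak in shFoxA1 cells. Of 30 genes of unrelated tissues, COL2A1, a cartilage collagen gene, gained and PTPRC, the gene of the leukocyte antigen CD45, lost one in shFoxA1 cells, and MBP, a myelin gene, lost one in shEV cells.

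The hairpin against FoxA1 was accompanied by more new than missing peaks with R1881 and with EtOH, as it was over all peaks. With R1881, 1672 of 2925 peaks of shFoxA1 cells had no partner in shEV cells (57.2%, where 52.8% of all peaks were gained), and 548 of 1760 peaks of shEV cells had none in shFoxA1 cells (31.1%, where 27.9% of all peaks were lost). With EtOH, 1066 of 1924 were gained (55.4%, where 49.2% of all peaks were gained) and 476 of 1312 were lost (36.3%, where 28.0% of all peaks were lost). The gained share of gained and lost peaks was 75.3% with R1881 (73.5 to 77.1) and 69.1% with EtOH (66.8 to 71.4), where all peaks had 74.2% and 71.2%. Without the dense windows it was 75.3% and 69.7%. Among the 10000 peaks of highest score in each list, where equal length holds the share over all peaks near 50% by construction, 194 non-repeat intergenic peaks were gained and 199 lost with R1881 (49.4% gained), and with EtOH the gained share was 53.1%. Regions of both shFoxA1 lists and of neither shEV list numbered 274 (5.25%, where 6.91% of all regions had that pattern), and those of both shEV lists and of neither shFoxA1 list numbered 34 (0.652%, where 0.967% of all regions had that pattern). The odds ratio for a change with the hairpin in the same direction under R1881 and EtOH was 1.38 (0.86 to 2.2), an interval that includes 1.0, against 1.76 (1.56 to 1.98) over all regions. The odds ratio moved with the setting, and its intervals hold no error between libraries, so they cannot decide whether a response to the hairpin was shared. It was 1.7 (1.08 to 2.69) with peaks within 500 bp counted as shared. Without the dense windows, an alternative chosen after seeing the data, it was 1.68 (1.03 to 2.73). In the higher-scoring part of each list above its median it was 2.84 (1.26 to 6.38). By GC content it was 2.75 (1.18 to 6.41) in regions below 40%, 0.605 (0.269 to 1.36) from 40 to 50% and 0.743 (0.202 to 2.73) from 50 to 60%. Over regions that hold no peak of another class it was 1.06 (0.54 to 2.06), and with the 10000 peaks of highest score 2.31 (0.899 to 5.92).

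Peaks gained with the hairpin were richer in GC and nearer to genes than those lost. With R1881 the median GC content was 46.2% for gained and 42.1% for lost peaks, and with EtOH 46.8% and 42.5%. The median distance to a TSS was 37.5 kb for gained and 52.0 kb for lost peaks with R1881, and 39.4 kb and 50.1 kb with EtOH. The contrast was not particular to this class. Over all peaks the GC medians were 46.0% and 40.4% with R1881 and 46.4% and 40.4% with EtOH. The distances over all peaks were 24.0 kb and 37.5 kb with R1881 and 23.8 kb and 39.8 kb with EtOH. Under R1881 against EtOH the GC contents lay closer together, at 45.1% for gained and 45.4% for lost peaks in shFoxA1 cells and 43.5% and 43.4% in shEV cells. In peaks below 40% GC the share gained with the hairpin was 58.6% (54.4 to 62.7) with R1881 and 57.1% (52.4 to 61.7) with EtOH. From 40 to 50% GC it was 77.4% (74.8 to 79.8) and 70.5% (66.8 to 74.0), and from 50 to 60% GC it was 86.1% (83.1 to 88.6) and 77.8% (74.0 to 81.3). All peaks ran the same way, at 62.0%, 73.9% and 84.4% with R1881 and 60.8%, 68.7% and 79.1% with EtOH. With R1881 against EtOH the order was different, and the middle class was highest: 61.3%, 73.9% and 62.9% in shFoxA1 cells and 60.8%, 65.7% and 53.5% in shEV cells. All peaks had 53.3%, 64.3% and 59.7% in shFoxA1 cells and 51.7%, 57.9% and 51.2% in shEV cells. The GC composition of whole libraries, which sequencing can shift, was not tested.

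**Figure D4:**
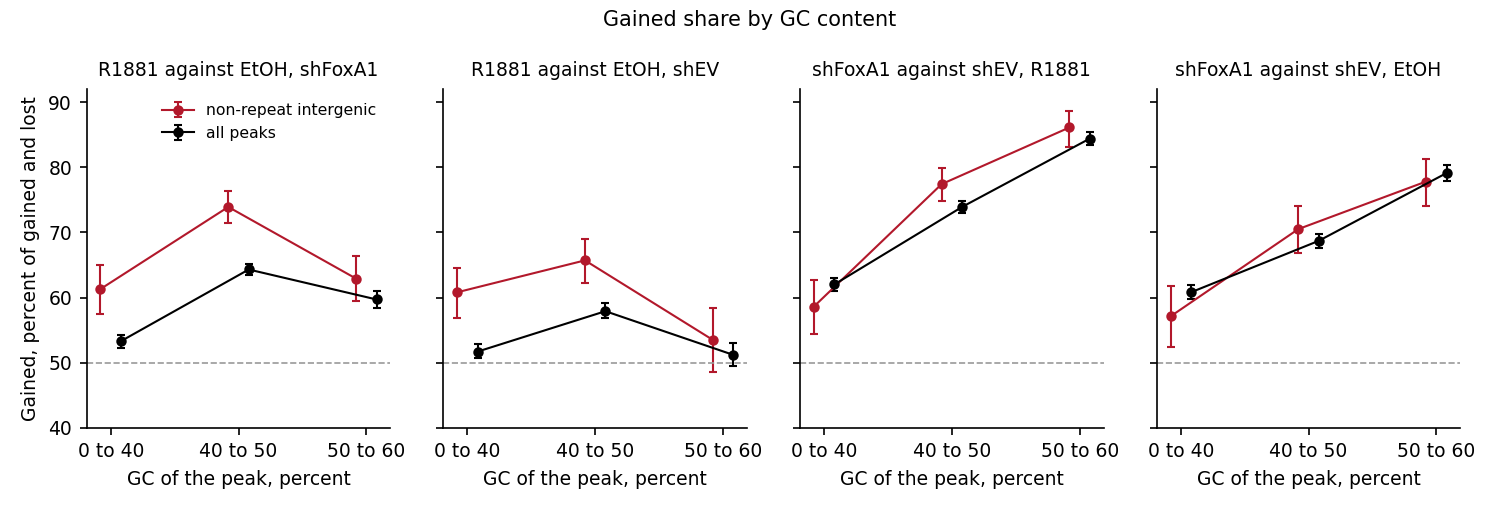
Gained peaks as a percentage of gained and lost peaks (vertical axis, from 40 to 92%) in 3 classes of GC content (horizontal axis, percent), for non-repeat intergenic peaks (red) and all peaks (black) in 4 comparisons of 1 library with 1 library; bars are Wilson 95% intervals from counting error. With the hairpin the share was higher in each richer class, ending at 86.1% with R1881, whereas with R1881 against EtOH the middle class was highest, at 73.9% in shFoxA1 cells.

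The plot of gained share by GC content places red above black below 40% and from 40 to 50% for R1881 against EtOH with both hairpins, without overlap of their intervals, and close together in both comparisons of hairpins.

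The named peaks gained with the hairpin include some that shEV cells showed under 1 treatment and some that they showed under neither. SHH, the gene of the ligand Sonic hedgehog, had a peak 16.7 kb from its start at chr7:155791965-155792798, which scored 112 with shFoxA1 and R1881, 259 with shFoxA1 and EtOH and 168 with shEV and R1881 and was not found with shEV and EtOH. SCARB1, the gene of the high-density lipoprotein receptor, had the same pattern, at 244, 155 and 125. Peaks in both shFoxA1 lists and no shEV list were found near SLCO4A1, an organic anion transporter gene, and SCAF8, a gene of a protein that binds RNA polymerase II (each 65 with R1881 and 155 with EtOH), and near KLF9, a gene of a zinc-finger factor that steroid hormones induce (186 and 66). Near TMPRSS2 such a peak lay 28.4 kb upstream, at chr21:41536269-41536940 with R1881 (102 with R1881, 42 with EtOH), a place without a peak in either shEV list. SALL3, a zinc-finger gene, and ERO1B, an oxidoreductase gene of the endoplasmic reticulum, were nearest to peaks in the shFoxA1 R1881 list alone (269 and 232). The distances were 266 kb for SALL3 and 27.0 kb for ERO1B. Of the named peaks lost with the hairpin, the highest in their lists were 52.0 kb from SEPHS1, a selenophosphate synthetase gene (202 with shEV and R1881), and 112 kb from SLC25A36, a mitochondrial carrier gene (147 with shEV and EtOH). Each had a peak of the repeat class in the other shEV list and none with shFoxA1. NFIX, the gene of a nuclear factor I protein, a family that interacts with FoxA1, had a peak 3.99 kb upstream in the shEV R1881 list alone (157). Among the 40 androgen-induced genes, 4 gained and 3 lost a peak with the hairpin under R1881 (where 2.75% and 0.784% of protein-coding genes did), and 2 gained and 2 lost one under EtOH (where 1.79% and 0.664% did).

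Peaks in all 4 lists were wider, and tRNA genes were common among them. Of the 5215 regions, 940 (18.0%, where 19.0% of all regions had that pattern) had a peak in every list, with a median width of 704.6 bp. A tRNA gene lay under 133 of these 940 regions (14.1%), against 4 of the 487 regions bound only in both R1881 lists (0.821%), 0 of the 165 bound only in both EtOH lists, 2 of the 274 bound only in both shFoxA1 lists (0.73%) and 0 of the 34 bound only in both shEV lists. By list, 119 peaks with shFoxA1 and R1881 lay on tRNA genes, 97 with shFoxA1 and EtOH, 104 with shEV and R1881 and 90 with shEV and EtOH, with median scores of 537, 442, 379 and 347. Of 443 tRNA genes in RefSeq, 152, 127, 132 and 119 had a non-repeat intergenic peak. A peak of any class, this one included, was found at 310, 295, 295 and 280. The peak at TRS-CGA1-1 and TRT-AGT5-1, a serine and a threonine tRNA gene on chromosome 17, was the highest on a tRNA gene in every list but the shFoxA1 EtOH list, with scores of 2563 in shFoxA1 R1881 cells, 2233 in shFoxA1 EtOH cells, 1338 in shEV R1881 cells and 1608 in shEV EtOH cells. The proline tRNA genes TRP-CGG1-1 and TRP-AGG2-1, 6.84 kb upstream of MPZL1, had 997, 2444, 870 and 1153, and the cysteine tRNA genes TRC-GCA2-3 and TRC-GCA2-4, near PLXDC1, had 729, 1377, 838 and 1052. Other peaks of all 4 lists lay near MKI67, the gene of the proliferation antigen Ki-67 (1648, 1934, 1823 and 1845, 48.2 kb upstream of the start), WNT7A, a Wnt ligand gene (1865, 1934, 999 and 1554), DEFB115, a defensin gene (1129, 1307, 1235 and 1035), CBS, a gene of sulfur amino acid metabolism (1079, 1205, 652 and 888), and CUX2, a homeobox gene (580, 1138, 313 and 872). The peak near MKI67 was of the repeat class with shFoxA1 and EtOH and with shEV and R1881, that near CUX2 with shEV and R1881, and that near WNT7A met neither definition with shFoxA1 and R1881.

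**Figure D5:**
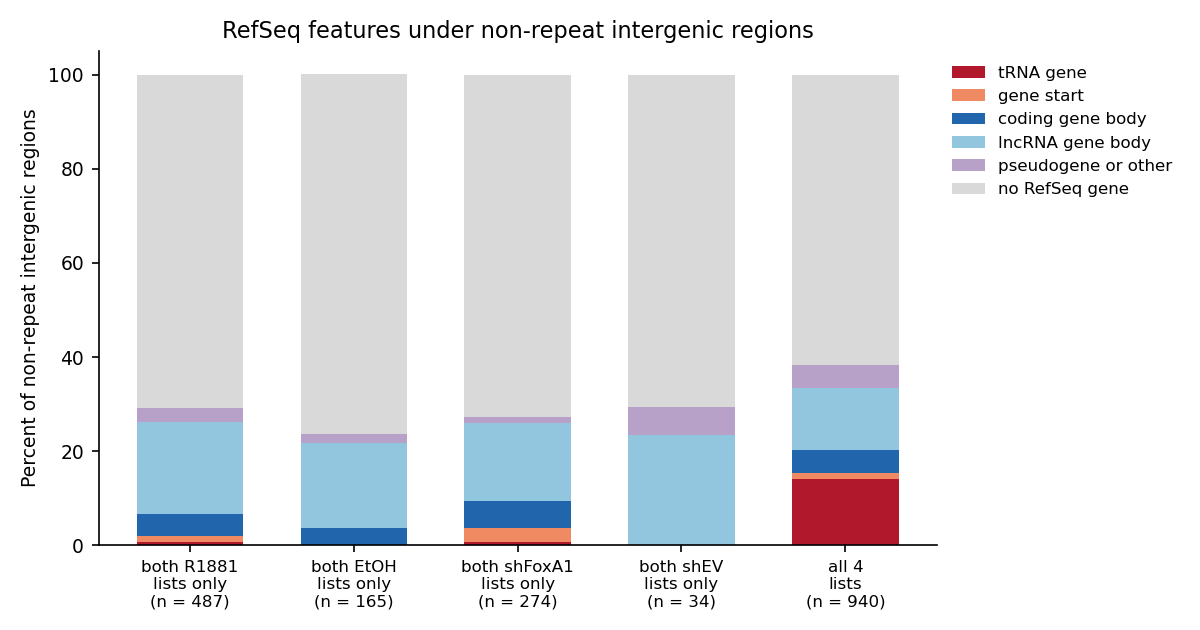
Percentage of non-repeat intergenic regions (vertical axis) over each kind of RefSeq feature, for 5 presence patterns with their number of regions; each region is counted once, with tRNA genes taking precedence over gene starts and gene bodies. The tRNA genes (red) take 14.1% of regions in all 4 lists and 0.821% of regions in both R1881 lists only, and regions with no RefSeq gene (grey) take 61.7% and 70.8%.

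The plot of RefSeq features shows that regions bound only with R1881 lay mostly over no gene (345 of 487, 70.8%) or in the body of an lncRNA gene (96, 19.7%). Leaving out peaks on tRNA genes gave an odds ratio of 11.8 for the response to R1881 with both hairpins.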

How the data were processed

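The files used are the peak lists of the 4 mTOR immunoprecipitations of LNCaP cells, sequenced as paired-end reads; the 4 input libraries were not used here. The submitters' processing notes name HOMER 4.11.1, deepTools 3.5.0, MACS2, Picard 2.0.1, Trimmomatic 0.36 and BWA 0.7.12 and the build hg38, with no order. Per the file headers, each deposited list is a HOMER annotation of the peaks of 1 library. The deposited peak score is the authors' value; its definition is not stated there, so it was used only within a list. The deposited fraction of G and C, and that of CpG, describe the reference sequence and were printed as percentages. Annotation, nearest gene and distance are the authors'. Depth per library is unknown.

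Members were found by rule, compared with the other lists by overlap of at least 1 bp, and merged over lists into regions with Python 3.11.15, pandas 2.3.3 and numpy 2.4.6; figures used matplotlib 3.10.9. Shares have Wilson 95% intervals and odds ratios an interval on the log scale. A dense window is 1 Mb with 8 or more members in a list, and the expected CpG of a peak is its GC share divided by 2 and squared, which the CpG ratio uses. Named were the 10 gained and 10 lost members of highest score per comparison with a protein-coding nearest gene, the 10 highest members of all 4 lists, and listed genes with a change within 50 kb. The tRNA genes, the strongest members, ZBTB10 beyond 50 kb and the printed windows were chosen after their values were seen. Overlap and interval code was tested on simulated data. RefSeq tables of GRCh38.p14 gave genes, tRNA genes and promoter windows: for 68.4% of 16334 shEV EtOH peaks that could be compared, the start site implied by the file lay within 5 bp of a RefSeq start. Motifs were searched on both strands. The members, gene lists and tests were chosen with earlier results of these data known, and the B box motif and 2 further alternatives, without dense windows and without tRNA genes, were chosen after seeing the data. One gene that the naming rule selects is not reported here by name and remains in the counts of its lists.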

Additional observations from a re-analysis of the deposited data

How the results depend on the processing

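The share gained with R1881 stayed above 50% under all alternatives run. With the 10000 peaks of highest score in each list it was 70.8% with shFoxA1 and 71.1% with shEV, with the higher-scoring part of each list above its median 72.8% and 74.1%, and with a GC limit of 50% 69.7% and 63.6%. The odds ratio for R1881 with both hairpins was 21.8 with 10000 peaks and 20.8 above the median score, and that for the hairpin under both treatments 2.31 and 2.84. With 10000 peaks per list the share gained with the hairpin turned to 49.4% with R1881 and was 53.1% with EtOH, where lists of equal length hold gained and lost peaks over all classes in about equal number by construction. Above the median score the share gained with the hairpin was 75.2% with R1881 and 76.8% with EtOH, where all peaks had 77.5% and 74.6%. With a GC limit of 50% it was 71.1% with R1881 and 64.9% with EtOH. Regions in both R1881 lists only were 11.1% with 10000 peaks, 11.6% above the median score and 11.0% with a GC limit of 50%. Near androgen-induced genes gained minus lost peaks numbered 10 with shFoxA1 and 9 with shEV, and 2 and 5 with 10000 peaks; within 100 kb it was 19 with shFoxA1. Near androgen-repressed genes the difference in shFoxA1 cells, -1, was 0 with 10000 peaks.

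The share of a list's peaks in the class was, for shFoxA1 R1881, 6.98% with 10000 peaks, 5.23% with a GC limit of 50%, 6.08% beyond 10 kb of a TSS, 6.58% without dense windows and 7.09% without tRNA genes. For shFoxA1 EtOH it was 4.73%, 3.66%, 4.45%, 4.79% and 5.2% in the same order, and for shEV EtOH 4.59%, 3.78%, 4.37%, 4.47% and 4.9%. For shEV R1881 it was 5.19% with a GC limit of 50%, 5.67% beyond 10 kb, 5.82% without dense windows and 6.35% without tRNA genes. The last 4 alternatives remove peaks from the class by construction; elsewhere the cause was not tested. Under the other 43 settings the values differed from those reported by less than the counting interval, or, for counts, by less than 1.5 times. Among them, the odds ratio for the hairpin was 1.7 with sharing within 500 bp and 1.68 without dense windows. It was 1.28 with a GC limit of 50%, 1.57 beyond 10 kb of a TSS, 1.37 without tRNA genes and 1.06 over regions without a peak of another class.

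No paired analysis was possible because each group has 1 library, so leaving out a replicate was not run either. The motif content of the peaks was not run, as no genome of the files' build was used, nor was a stricter overlap for merged regions, which join by any overlap. Presence rests on thresholded lists of unknown depth.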
